A study of Mus musculus with 6 samples.

Results

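The p53 targets and cell-cycle arrest genes are 43 genes chosen by symbol: the p53 family itself, p53 target genes of arrest, apoptosis, DNA repair and metabolism, and the inhibitors of cyclin-dependent kinases (CDKs). All 43 were found among the 22028 protein-coding genes of the GENCODE annotation of the mm10 mouse assembly. Their H3K27me3 was read from the anti-H3K27me3 CUT&Tag peak lists of mouse ovarian granulosa cells (GCs), 3 libraries of a PBS group and 3 of a CTX group. The cells came from gonadotropin-primed 3-week-old ICR females, each library being a pool of GCs from 3 mice, isolated 6 h after 1 injection of cyclophosphamide (CTX), an alkylating chemotherapeutic agent, or of phosphate-buffered saline (PBS), its vehicle. The labels name no genotype for either group. A gene was scored in a library when a merged peak overlapped its promoter, the 2000 bp on either side of any annotated transcription start site (TSS), or otherwise its gene body. The remaining 21985 protein-coding genes served as the comparison.

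p53 is a transcription factor that is stabilised after DNA damage and binds response elements near genes that halt the cell cycle, repair DNA or start apoptosis. Alkylating agents such as CTX add groups to DNA bases and crosslink the strands. H3K27me3, trimethylation of lysine 27 of histone H3, is laid down by the enzyme EZH2 of Polycomb repressive complex 2, often over CpG-rich promoters, and marks genes that are held silent. In CUT&Tag an antibody leads a transposase to the marked chromatin, which is cut and tagged for sequencing, so a peak is a place where tagged fragments pile up above their surroundings. The comparison asked whether genes of the damage response carried this mark in GCs and whether the called mark differed 6 h after CTX. A peak list does not measure transcription.

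Depth, recovered from the peak lists, was 1375 to 1957 reads per Mb after PBS and 1118 to 1630 after CTX, and merged peaks numbered 4244 to 6378 and 2916 to 4993, with CTX replicate 3 lowest in both. No sequencing batch was given in the labels, and no 2 libraries held the same list. None of 12 granulosa cell genes and none of 6 oocyte genes had a promoter peak in any library, whereas 4 of 6 theca and stroma genes (Col1a1, Insl3, Pdgfra and Ptch1), 1 of 4 immune genes (Ptprc) and 1 of 4 endothelial genes (Kdr) had one. A repressive mark cannot show how much RNA of each cell type was present.

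Most of these genes had no called H3K27me3. A promoter peak was called in at least 1 library at 9 of the 43 genes (20.9%), against 11.9% of the other protein-coding genes. In every library it was called at 2 genes (4.65%), Trp73 and Bcl2l11, against 3.50% of the others. With gene bodies included, 10 genes (23.3%) had a peak in some library, against 18.1% of the others. The 9 promoters were those of Trp73, of the apoptosis genes Bcl2l11, Bbc3, Pmaip1 and Perp, of the arrest genes Sfn and Plk3, and of the CDK inhibitors Cdkn2a and Cdkn1c. Cdkn2b had peaks in its body only.

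Sequence is printed here for 1 peak place of each gene with a promoter peak in at least 4 libraries, so that its CpG content can be seen. At Bbc3 and Cdkn2a some of the values below rest on other places of the gene. Each is read from GRCm38 on the strand of its gene with CpG dinucleotides in capitals. The Bcl2l11 stretch (chr2:128124467-128124647, plus strand, upstream of the gene, under a peak in 5 libraries) holds 6 CpG. The Trp73 stretch (chr4:154140734-154140914, minus strand, upstream of the first exon, under a peak in 6 libraries) holds 10. The Bbc3 stretch (chr7:16312079-16312259, plus strand, under a peak in 3 libraries) holds 19 CpG and includes 119 coding bases and 15 untranslated ones. The Cdkn2a stretch (chr4:89282193-89282392, minus strand, under a peak in 3 libraries) is the 200 bp before the internal start from which the Ink4a transcript begins, and holds 4 CpG.
Bcl2l11 upstream peak: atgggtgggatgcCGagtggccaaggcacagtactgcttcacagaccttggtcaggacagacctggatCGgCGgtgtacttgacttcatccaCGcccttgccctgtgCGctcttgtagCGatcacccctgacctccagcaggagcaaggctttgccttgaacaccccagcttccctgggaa
Trp73 upstream peak: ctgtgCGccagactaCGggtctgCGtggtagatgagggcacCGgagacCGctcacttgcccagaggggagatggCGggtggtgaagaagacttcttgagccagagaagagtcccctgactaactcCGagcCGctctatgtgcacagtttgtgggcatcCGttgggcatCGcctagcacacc
Bbc3 intragenic peak: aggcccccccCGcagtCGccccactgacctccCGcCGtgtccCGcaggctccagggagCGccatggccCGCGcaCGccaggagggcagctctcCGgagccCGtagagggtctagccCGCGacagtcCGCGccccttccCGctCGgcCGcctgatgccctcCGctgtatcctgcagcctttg
Cdkn2a upstream of the internal start: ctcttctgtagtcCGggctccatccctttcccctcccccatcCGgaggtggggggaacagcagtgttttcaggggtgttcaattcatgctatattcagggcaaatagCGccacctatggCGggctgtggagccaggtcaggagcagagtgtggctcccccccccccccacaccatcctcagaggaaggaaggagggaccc

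Of the 3 p53 family genes, only Trp73 had a peak. Trp73 encodes p73, a relative of p53 that binds similar response elements, and Trp53 and Trp63 encode p53 and p63. Values at a peak are given as pileup, the number of reads, extended to 200 bp, stacked at its summit, scaled to 1000 reads per Mb. The highest scaled pileup in the Trp73 promoter was 20.95, 26.2 and 23.8 after PBS and 16.1, 19.0 and 22.4 after CTX, in the order of replicates 1, 2 and 3 here and throughout. The range of the CTX libraries reached into that of the PBS libraries, with CTX replicate 3 above PBS replicate 1. The means were 23.7 ± 2.62 and 19.1 ± 3.16 (SD, n = 3 each), a log2 difference of -0.31 that lay within the spread between libraries (two-sided exact permutation p = 0.2). These highest summits lay at -647, -100 and -586 bp from the start after PBS. After CTX they lay at -655, 500 and 519 bp, so different places were compared. Summits between -684 and -531 bp, called in every library, had 20.95, 23.3 and 23.8 after PBS and 16.1, 14.7 and 18.8 after CTX. These values did not overlap and were not tested. Highest pileup was so separated at 38.5% of the 750 genes with a promoter summit in every library.

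The read density around the highest Trp73 summit of each library did not overlap between the groups. Density is the number of reads in the surrounding 10 kb over the genome average, which MACS2 used as the local background. It was 32.3, 32.3 and 37.3 times the genome average after PBS and 23.7, 26.5 and 27.2 times after CTX. Every CTX library lay below every PBS library (log2 difference -0.40, exact permutation p = 0.1, the smallest that 3 against 3 libraries can give). Such a separation was the rule among genes with a promoter summit in every library, since 81.6% of these 750 genes showed it.

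Peaks also covered less of the Trp73 promoter after CTX. They covered 2094, 1624 and 1778 bp after PBS and 269, 838 and 870 bp after CTX. The groups did not overlap, and the log2 difference was -1.65 (exact permutation p = 0.1). Of the 772 genes with a promoter peak in every library, 31.7% had fewer covered bases in every CTX library than in every PBS library, and the median log2 difference over them was -0.68, with 3.11% of these genes at or below Trp73. The Trp73 promoter held 7, 4 and 7 summits after PBS and 1, 2 and 2 after CTX. Relative to the start, they ran from -1151 to 825 bp in PBS replicate 1, from -1277 to 486 bp in PBS replicate 2 and from -1334 to 485 bp in PBS replicate 3. No CTX library had a summit beyond -684 bp upstream. The peaks before the start lay at the same time in the promoter window of the neighbouring gene Wrap73, so they cannot be ascribed to Trp73 alone.

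Further peaks lay inside the Trp73 gene body in every library, in introns 3304 to 12938 bp from the nearest start. Their highest scaled pileup was 15.8, 15.3 and 15.1 after PBS and 13.3, 11.7 and 15.2 after CTX. CTX replicates 1 and 2 lay below every PBS library, while CTX replicate 3 lay among the PBS values.

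**Figure D1:**
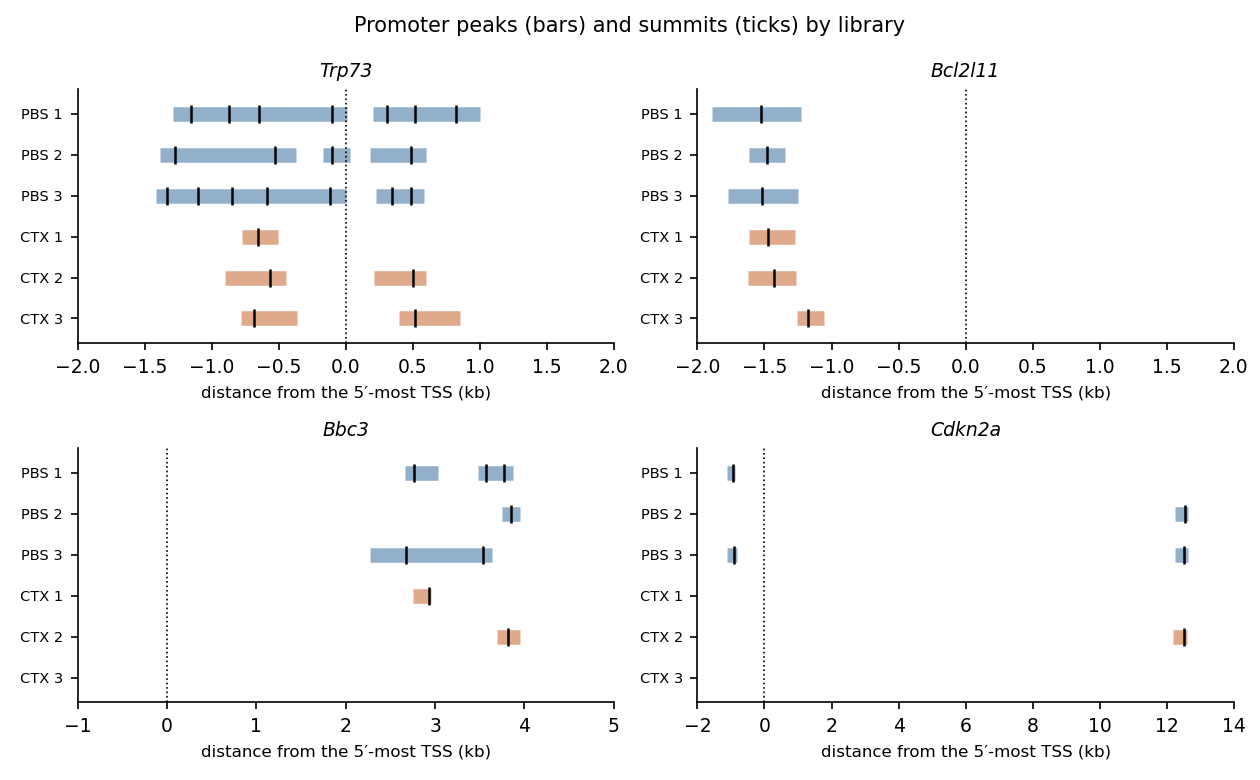
Positions of promoter peaks (bars) and their summits (black ticks) in kb from the 5′-most TSS (dotted line) of Trp73, Bcl2l11, Bbc3 and Cdkn2a, 1 row per library, PBS in blue and CTX in orange. Trp73 peaks covered 1624 to 2094 bp in the PBS rows and 269 to 870 bp in the CTX rows, and the Bcl2l11 peak stayed upstream of its start. Bbc3 had no promoter peak in CTX replicate 3, and Cdkn2a had none in CTX replicates 1 and 3.

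Among the 11 apoptosis genes, only Bcl2l11 had a promoter peak in every library. Bcl2l11 encodes BIM, a pro-apoptotic protein of the BH3-only class that binds and neutralises the survival proteins of the BCL2 family. It had 1 promoter summit in each library, upstream of the start. Relative to the TSS the summit lay at -1529, -1484 and -1522 bp after PBS, at -1477 and -1431 bp in CTX replicates 1 and 2, and at -1175 bp in CTX replicate 3. The first 5 libraries thus had their summits close together. The peak of CTX replicate 3 lay nearer the gene and did not overlap those of PBS replicate 2 or of CTX replicates 1 and 2, so its value is from another place.

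The highest pileup in the Bcl2l11 promoter, wherever its summit lay, was lower in each CTX library than in each PBS library. The summit held 25, 24 and 34 reads after PBS and 13, 17 and 8 after CTX. Scaled for depth, the pileup was 12.8, 17.5 and 21.3 after PBS and 9.07, 10.4 and 7.16 after CTX, and the groups did not overlap. The means were 17.2 ± 4.28 and 8.89 ± 1.65 (SD, n = 3 each), a log2 difference of -0.94 (two-sided exact permutation p = 0.1; Benjamini-Hochberg adjusted p = 0.15 over the 6 single-gene comparisons made). Without CTX replicate 3 the log2 difference was -0.79. In PBS replicate 1, the lowest of its group after scaling, the 95% exact Poisson interval of the 25 reads was 16.2 to 36.9, and that of the 17 reads in CTX replicate 2, the highest of its group, was 9.90 to 27.2. These intervals cover counting error only, and they overlapped.

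Scaled pileup was lower in every CTX library at 38.5% of the 750 genes with a promoter summit in every library, so the separation of the groups at Bcl2l11 was shared by many genes. The size of the difference was less common. The median log2 difference of the 750 genes was -0.28 with quartiles of -0.40 and -0.15, and 0.4% of them lay at or below Bcl2l11, while 43.1% lay at or below Trp73. The Bcl2l11 rank includes CTX replicate 3, whose value is from another place, and was not taken without it. The Bcl2l11 pileup was also below the library's median over these genes in each library. Those medians were 20.6 to 27.6, and counting error weighs more at low pileup. Divided by the library's median over these genes, an alternative chosen after seeing the data, the difference was -0.66 at Bcl2l11 and -0.04 at Trp73.

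**Figure D2:**
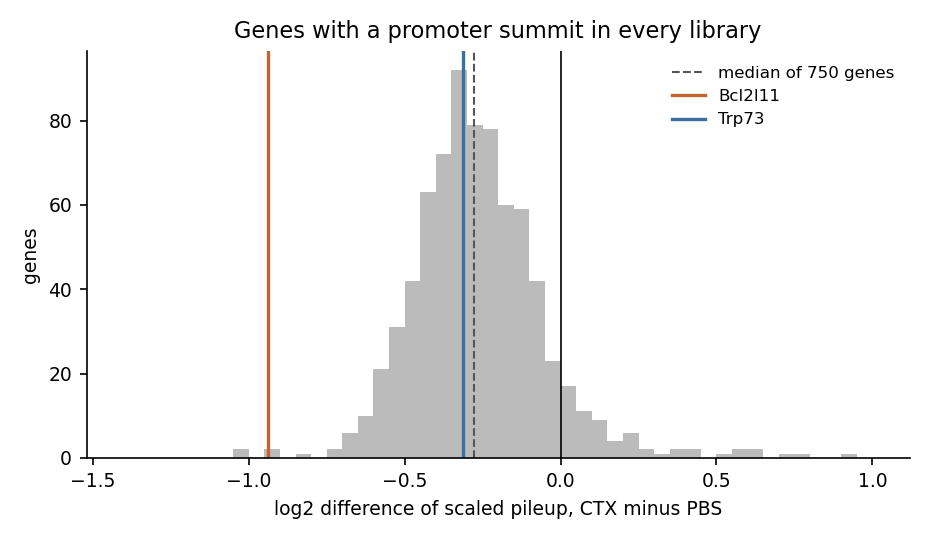
Log2 difference of the highest scaled promoter pileup (CTX minus PBS, horizontal axis) for the 750 protein-coding genes with a promoter summit in every library (grey bars, number of genes). The dashed line is their median of -0.28, Trp73 (blue) lies beside it at -0.31 and Bcl2l11 (orange) lies in the low tail at -0.94.

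Bcl2l11 differed from Trp73 in its surroundings. The density in the 10 kb around the Bcl2l11 summit was 8.89, 9.02 and 11.5 times the genome average after PBS and 6.84, 8.16 and 5.28 times after CTX, again without overlap (log2 difference -0.55, exact permutation p = 0.1). Density was separated in this way at 81.6% of the 750 genes with a promoter summit in every library, whose median log2 difference was -0.33. The value of CTX replicate 3 was taken around its own summit, at another place. The Bcl2l11 densities were below those at Trp73 in the same libraries, while the fold enrichment of the summit over its local background was higher, 4.13 to 7.48 at Bcl2l11 and 2.20 to 3.75 at the Trp73 promoter summits. Covered bases at Bcl2l11 overlapped between the groups, at 662, 265 and 518 bp after PBS and 341, 357 and 202 bp after CTX (exact permutation p = 0.3).

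Bbc3 encodes PUMA, a BH3-only protein that p53 induces directly. Its promoter windows, set around 4 annotated starts, held a peak in 5 libraries. The highest scaled pileup was 10.2, 7.998 and 11.3 after PBS and 9.77 and 8.59 in CTX replicates 1 and 2, and no peak was called in CTX replicate 3. The CTX libraries with a peak lay inside the PBS range. The summits lay 2677 to 3845 bp inside the gene from its 5′-most start, within an intron or across the beginning of the coding sequence, and none lay at that start.

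Pmaip1, which encodes the BH3-only protein NOXA, had its most frequent peak 2487 to 2689 bp downstream of the nearest start, beyond the promoter window. That intronic peak had a scaled pileup of 19.6 in PBS replicate 2, 25.1 in PBS replicate 3 and 19.5, 15.3 and 15.2 after CTX, and was not called in PBS replicate 1. A weaker peak within the promoter window was called in PBS replicates 1 and 3, at 13.8 and 15.7, and in no CTX library. The density around the Pmaip1 peaks was 17.9 to 26.6 times the genome average. Perp, a p53 target that encodes a membrane protein of desmosomes, had a promoter peak in CTX replicate 2 alone, with a summit of 6 reads and a q-value of 0.0271.

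The 7 other apoptosis genes had no peak in promoter or body in any library. They were Bax, a pore-forming protein of the mitochondrial membrane, Apaf1, the core of the apoptosome, the death receptors Fas and Tnfrsf10b, and Aen, Phlda3 and Trp53inp1.

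**Figure D3:**
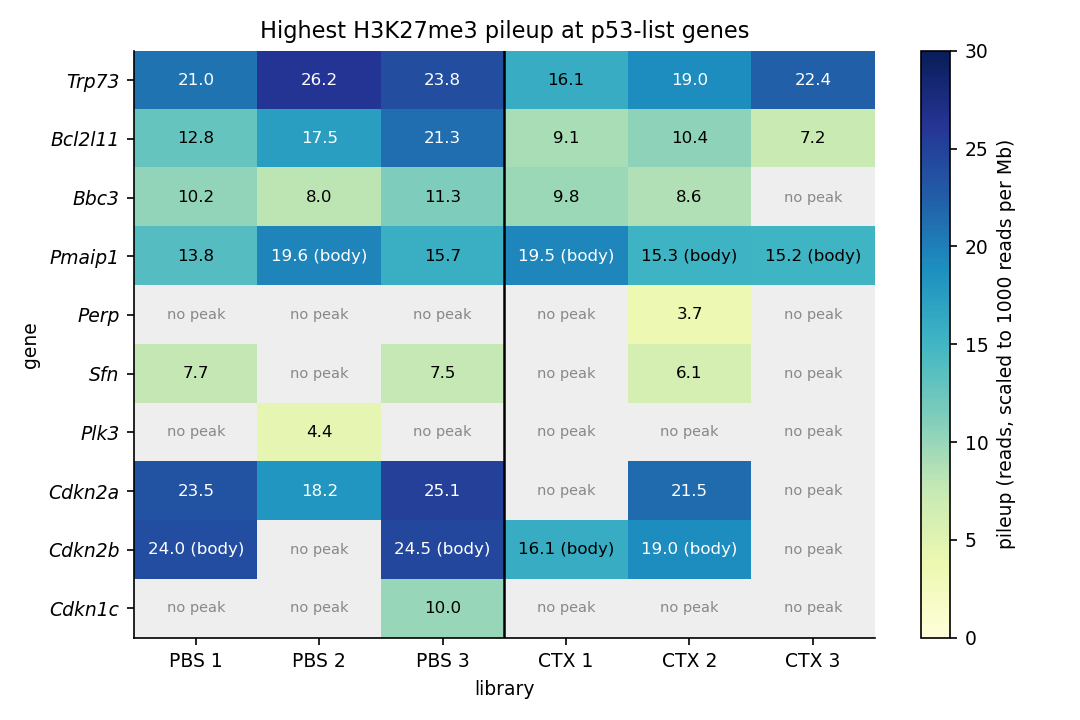
Highest pileup in reads, scaled to 1000 reads per Mb (colour and number), for the 10 genes with a peak (rows) in the 6 libraries (columns, PBS left of the line and CTX right), taken in the promoter or, where no promoter peak was called, in the gene body. Trp73 and Bcl2l11 have a promoter value in all 6 libraries, while Perp, Plk3 and Cdkn1c have 1 value each.

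Of the 11 genes of arrest and p53 feedback, 2 had a promoter peak. Sfn, which encodes stratifin, a protein that holds cyclin B and CDK1 in the cytoplasm, had a peak over its single coding exon in PBS replicates 1 and 3 and in CTX replicate 2. These were the 3 libraries of greatest depth. Its scaled pileup was 7.66 and 7.53 after PBS and 6.14 in the CTX library. Plk3, a stress-responsive kinase of the Polo family, had a peak in PBS replicate 2 alone, with a summit of 6 reads and a q-value of 0.00333.

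Cdkn1a, which encodes the CDK inhibitor p21 and is the main effector of arrest by p53, had no peak in any library, and the nearest one in any list lay 137875 bp from a TSS. No peak was called at Mdm2, whose product degrades p53, at Ccng1, Btg2, Zmat3 or Plk2, or at the growth arrest genes Gadd45a, Gadd45b and Gadd45g. Among the genes that the study followed, the nearest peak in any library lay 176642 bp from a TSS of Fas, 65733 bp from Ccng1, 35468 bp from Btg2, 28551 bp from Gadd45g and 195229 bp from Alox5. None of these 6 genes, Cdkn1a included, had a called promoter or body peak in the PBS group, so no loss of a called peak could be scored there.

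No peak was called in any library at 33 of the 43 genes. Besides those named, they were Trp53 and Trp63, the CDK inhibitors Cdkn1b, Cdkn2c and Cdkn2d, all 5 genes of DNA repair and nucleotide supply (Rrm2b, Xpc, Ddb2, Polk and Ercc5) and all 7 of metabolism and stress (Sesn1, Sesn2, Ddit4, Fdxr, Tigar, Gdf15 and Alox5). The peak nearest to a TSS of these 33 genes in any library lay at a median distance of 65733 bp, from 6327 bp at Cdkn2c to 350252 bp at Ercc5, and 32 of them had none within 10 kb. A gene without a peak may still carry the mark below the limit of calling. The lowest pileup called in each library was 4 reads, at places where the local background was that of the genome.

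Of the 6 CDK inhibitor genes, the neighbours Cdkn2a and Cdkn2b lay in a region of high density. Cdkn2a encodes INK4a, an inhibitor of CDK4 and CDK6, and, from a start further upstream, ARF, which protects p53 from MDM2. Cdkn2b encodes INK4b. Over both genes with 2 kb on either side, the density at called summits was 42.3 to 46.6 times the genome average in PBS replicate 1, 36.3 to 43.9 in PBS replicate 2 and 36.6 to 49.5 in PBS replicate 3. It was 30.2 to 33.4 in CTX replicate 1 and 28.8 to 34.7 in CTX replicate 2, below all 3 PBS libraries. In CTX replicate 3, the library of lowest depth, no summit was called. The called summits did not lie at the same places in each library. Density was lower in every CTX than in every PBS library at 81.6% of the 750 genes with a promoter summit in every library.

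Cdkn2a was called at separate places. A peak with its summit at -935 and -901 bp from the ARF start had a scaled pileup of 23.5 and 25.1 in PBS replicates 1 and 3. A peak over the INK4a start, which also covered the stretch printed above, had a scaled pileup of 18.2 in PBS replicate 2, 20.7 in PBS replicate 3 and 21.5 in CTX replicate 2. The ARF peak was thus called in 2 PBS libraries and no CTX library, and the INK4a peak in 2 PBS libraries and 1 CTX library. In the body of Cdkn2b the scaled pileup was 24.0 in PBS replicate 1 and 24.5 in PBS replicate 3, against 16.1 and 19.0 in CTX replicates 1 and 2. Fold enrichment at these summits, which MACS2 measures against the local background of the summit, was 2.37 to 3.41.

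Cdkn1c encodes p57, a CDK inhibitor from an imprinted locus. Its single peak, in PBS replicate 3, had 16 reads and a q-value of 0.0471, close to the threshold of 0.05 for calling. It lay at an internal start and also within the promoter window of the gene model Gm44732.

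Promoter peaks were then counted over the 43 genes. Genes with one numbered 6, 5 and 7 after PBS and 3, 6 and 2 after CTX, with means of 6 ± 1 and 3.67 ± 2.08 (SD, n = 3 each). CTX replicate 2 lay within the PBS range, so the groups overlapped. As shares, these were 13.95%, 11.6% and 16.3% against 6.98%, 13.95% and 4.65%. Of the other protein-coding genes, 9.06%, 7.105% and 8.69% had a promoter peak after PBS and 6.15%, 7.30% and 4.59% after CTX.

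The share of the 43 genes was above that of the other genes in every library, by 0.0617 percentage points in CTX replicate 3 to 7.59 in PBS replicate 3. The exact 95% binomial (Clopper-Pearson) interval of the share of the 43 genes was wide. It ran from 5.30% to 27.9% in PBS replicate 1 and from 0.568% to 15.8% in CTX replicate 3. It is for counting error only and held the share of the other genes in each library. The 43 genes were chosen by symbol, so this interval does not test the difference. The difference between the shares was 5.67 ± 1.67 percentage points after PBS and 2.51 ± 3.61 after CTX, and the libraries of the groups overlapped, with 4.52 to 7.59 points after PBS and 0.0617 to 6.65 after CTX. With peaks in gene bodies, the counts were 7, 6 and 8 after PBS and 5, 8 and 3 after CTX, beside 11.45%, 8.94% and 10.4% of the other genes after PBS and 9.07%, 9.88% and 6.70% after CTX. When each list was reduced to its 2916 strongest peaks, the number in the shortest list, the promoter counts became 4, 3 and 3 after PBS and 3, 5 and 2 after CTX, and the means of the groups were equal. Of the other genes, 5.91%, 5.93% and 6.21% then had a promoter peak after PBS and 5.07%, 5.49% and 4.59% after CTX.

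**Figure D4:**
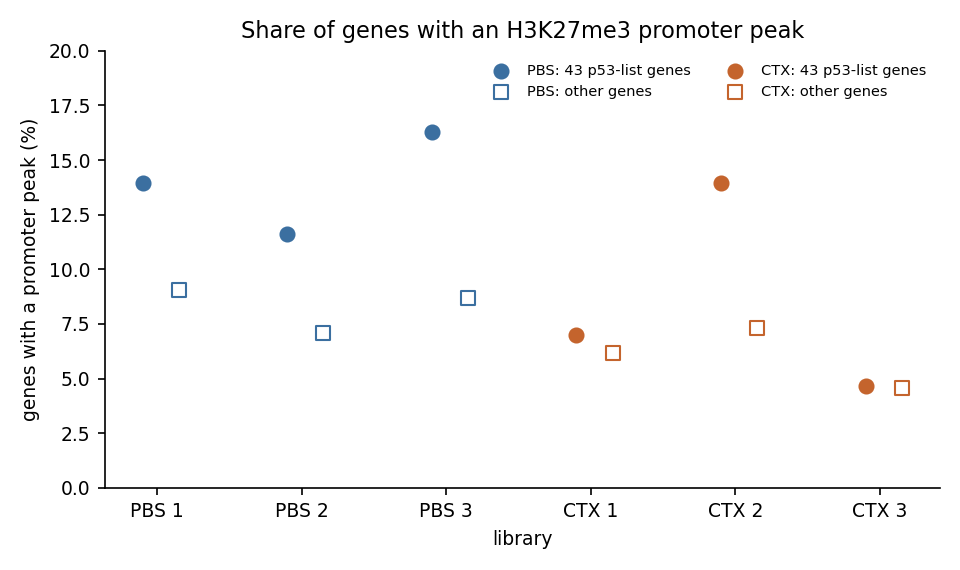
Share of genes with a promoter peak in percent (vertical axis) in each library, with filled circles for the 43 p53 and arrest genes and open squares for the other 21985 protein-coding genes, PBS in blue and CTX in orange. The circles lie at 11.6% to 16.3% after PBS and at 4.65% to 13.95% after CTX, where CTX replicate 2 lies among the PBS values.

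No gene of the list had a promoter peak in every PBS library and in no CTX library, a pattern seen at 87 protein-coding genes (0.395%). None had the reverse pattern, which was seen at 0 protein-coding genes (0%). Leaving out PBS replicate 2 brought 1 gene into the first pattern (Pmaip1), and leaving out CTX replicate 2 did so as well (Cdkn2a). A pattern over fewer libraries is easier to meet for any gene. Its share over all protein-coding genes was not counted, so these 2 cases cannot be judged. The promoter bases under peaks, summed over the 43 genes, were 4326, 2679 and 5188 after PBS and 815, 2599 and 1072 after CTX. The groups did not overlap, though PBS replicate 2 and CTX replicate 2 were close to each other. The Trp73 promoter alone gave 1624 to 2094 of these bases after PBS and 269 to 870 after CTX. The same sum over the other genes is not given here. Of the 772 genes with a promoter peak in every library, 31.7% had fewer covered bases in every CTX library. Covered bases were lower after CTX at 94.2% of these genes, with a median log2 difference of -0.68.

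The libraries with the fewest genes, CTX replicates 1 and 3, were also among the 3 of lowest depth, and the part of depth in these counts was not tested. With a q-value of at most 0.01, Trp73 was the only gene of the list with a promoter peak in CTX replicate 3. At a q-value of at most 1e-05 the promoter counts were 4, 2 and 3 after PBS and 0, 3 and 0 after CTX. The other genes then also had their lowest shares in CTX replicates 1 and 3, with 5.74%, 3.66% and 5.40% after PBS and 2.86%, 3.89% and 1.65% after CTX.

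Other genes of the pathway were taken from a list of 62 genes of the cell cycle, apoptosis and p53 response. A promoter peak was called in some library at 10 of them (16.1%), beside the 11.9% of the genes outside the 43. It was called at 7, 5 and 6 of them after PBS and at 5, 6 and 5 after CTX, which is 8.06% to 11.3% of the list per library. Adgrb1, an adhesion receptor gene, had the highest values, with a scaled pileup of 48.0, 47.3 and 59.6 after PBS and 48.2, 40.5 and 39.4 after CTX. Igfbp3, which encodes a binding protein of insulin-like growth factors, had 24.0, 18.2 and 24.5 against 16.8, 19.0 and 17.9. In both, the values of the groups overlapped.

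Ccna1, the germline cyclin A gene, had a scaled pileup of 15.8, 13.8 and 17.6 after PBS and 16.1, 15.3 and 15.2 after CTX, which overlapped too. Hrk, another BH3-only gene, had 26.1, 20.4 and 21.3 after PBS, 16.8 and 19.6 in CTX replicates 1 and 2, and no promoter peak in CTX replicate 3. Ccnd1, which encodes the cyclin D1 that drives entry into the cell cycle, had 36.3 and 32.6 in PBS replicates 1 and 3, no promoter peak in PBS replicate 2, and 27.2, 26.4 and 25.9 after CTX. At Hrk and Ccnd1, each without a value in a library, the called CTX values lay below the called PBS values. Among the 750 genes with a promoter summit in every library, 38.5% had a lower scaled pileup in every CTX than in every PBS library.

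The starts of these genes were next described by their sequence. The CpG ratio, observed over expected CpG in the 1000 bp around the 5′-most TSS, had a median of 0.744 over the 43 genes and 0.552 over the 21895 other genes with a value. The 9 genes with a promoter peak had a median of 0.769 and the 34 without one 0.728, so CpG-rich starts were common in both sets. Of the other genes, those with a promoter peak in every library had a median of 0.637 and those with none 0.527. Bbc3 (0.228) and Sfn (0.354) had promoter peaks and a CpG-poor 5′-most start, and in both the peaks lay inside the gene. Bbc3 has 4 annotated starts, and the CpG ratio under its peaks was 0.159 to 0.812, so some of them covered CpG-rich sequence. Cdkn1a (0.128), Trp63 (0.196) and Gdf15 (0.201) had the CpG-poorest 5′-most starts of the list and no peak. Their other annotated starts were not measured.

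**Figure D5:**
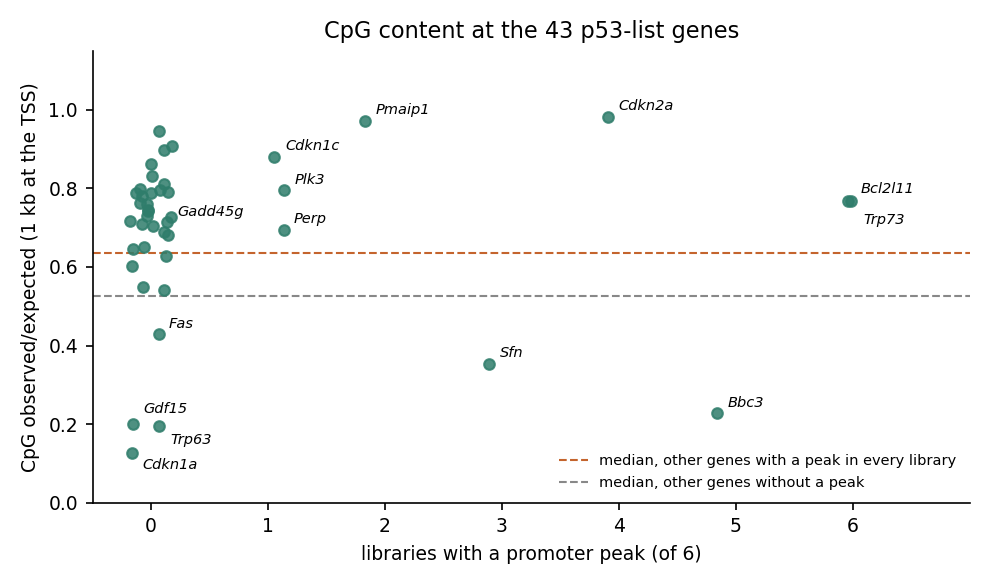
Observed over expected CpG in the 1000 bp around the 5′-most TSS (vertical axis) of the 43 genes (points), against the number of libraries with a promoter peak (horizontal axis, points shifted sideways at random to separate them). The genes without a promoter peak span 0.128 to 0.947 and those with one span 0.228 to 0.983, and dashed lines give the medians of other genes with a peak in every library (0.637) and without a peak (0.527).

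Sequence matching the p53 response element was found at 4 of the 43 genes. None of the 9 genes with a promoter peak had a match. The Bbc3 peaks and the INK4a peak of Cdkn2a, however, lay outside the window searched. A match was a pair of adjacent half-sites of 10 bases, each with an exact core of 4 bases, with at most 1 mismatch elsewhere, within 2000 bp of the 5′-most TSS. This definition was set after a stricter one had missed the element near Cdkn1a, so the match at Cdkn1a is not independent of it. The motif reads alike on both strands. It was found at 102 of 21895 other genes (0.466%). The matches lay at -48 bp from the start at Cdkn1a, and at 375, 490 and 1683 bp at Ccng1, Gdf15 and Zmat3, counted to the end of the match with the lower coordinate. No peak of any library covered them, which follows from the lack of promoter peaks at the listed genes with a match. These genes were listed for their response to p53, and the share among them is given as a description.

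Printed for contrast are the 200 bp before the 5′-most start of 2 genes that the study followed and that had no peak. At Cdkn1a (chr17:29090776-29090975, plus strand) there are 2 CpG, and capitals mark the p53 response element. At Gadd45g (chr13:51846478-51846677, plus strand) there are 15 CpG, and capitals mark the CpG dinucleotides. The Trp73 stretch above differs in length and lies elsewhere relative to the start, so its CpG number is not comparable. In the 1000 bp around the 5′-most TSS, Gadd45g had 50 CpG and Trp73 had 95.
Cdkn1a upstream: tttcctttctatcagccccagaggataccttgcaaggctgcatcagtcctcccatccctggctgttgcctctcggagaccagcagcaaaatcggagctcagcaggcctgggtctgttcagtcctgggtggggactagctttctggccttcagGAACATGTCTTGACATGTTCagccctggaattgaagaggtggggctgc
Gadd45g upstream: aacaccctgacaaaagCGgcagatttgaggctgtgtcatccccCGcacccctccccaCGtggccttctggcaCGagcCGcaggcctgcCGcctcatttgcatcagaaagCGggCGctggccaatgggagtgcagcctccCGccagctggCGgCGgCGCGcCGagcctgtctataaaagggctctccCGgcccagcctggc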

How the data were processed

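Anti-H3K27me3 CUT&Tag was carried out on GCs of 3 PBS and 3 CTX libraries. The authors aligned reads with BWA 0.7.12 to mm10, kept reads of mapping quality of at least 13 and called narrow peaks per library with MACS2 2.1.0 at a q-value of 0.05. The deposited lists give a score, the p-value and q-value each as −log10, and a fold enrichment, a ratio of pileup to local background, for each summit. Use of a control library is not given in the sources used here.

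Overlapping intervals were merged per library and set against GENCODE M21 promoters (2000 bp on either side of a TSS, overlap of at least 1 bp) and gene bodies. Pileup and background were solved from fold enrichment and p-value for 99.8% to 99.9% of summits, and all backgrounds were whole reads in 10 kb (tolerance 0.05). The most frequent background gave the depth. This recovery and the 10 kb density were chosen after the data were seen and tested on simulated data. H3K27me3 forms broad domains, which narrow-peak calling can split.

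The genes, roles and lists were chosen with earlier results of these data known, so no p-value is given for sums over the list. Genes with a peak and those the study followed were named. Pathway genes were named when a promoter peak was present in at least 3 libraries. Sequences were printed for genes with a promoter peak in at least 4 libraries and for 2 genes without one. For single genes, log2 values were tested by exact permutation, two-sided, with Python 3.11.15 and scipy 1.17.1. The motif definition replaced a stricter one that had missed the element near Cdkn1a. Alternatives covered the q-value, window, overlap, peak number, TSS set, replicates and block. The study's RNA-seq was not used here.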

Additional observations from a re-analysis of the deposited data

How the results depend on the processing

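The 9 settings that kept all libraries gave a difference in genes with a promoter peak (CTX minus PBS) of -2.33 to 0, and 6 fits leaving out 1 library gave -3.5 to -1.5. With equal peak numbers the difference was 0, the difference with gene bodies included was 0, and the excess over other genes turned to 0.967 percentage points higher in the CTX group, from -3.15. Leaving out 1 library gave -3 to -0.5 genes with gene bodies included, -5.22 to -1.93 percentage points for the excess and -3262 to -2007 promoter bases. Genes with a promoter peak in every PBS and no CTX library numbered 0 to 1 when 1 library was left out, with 1 reached without PBS replicate 2 or CTX replicate 2. The same count over all protein-coding genes was not made for these fits. The Bcl2l11 difference kept its sign in the fits without 1 library, at -1.14 to -0.77 on the log2 scale, and Trp73 at -0.43 to -0.19.

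Same-numbered libraries did not deviate together (correlations of -0.027, -0.037 and -0.043 over 2631 genes), so the replicate numbers were not taken as pairs. With the replicate block the mean differences stayed at -2.33 genes, -1.67 genes with bodies, -3.15 percentage points and -2569 bases, and at -0.94 for Bcl2l11 and -0.31 for Trp73 (sign-flip permutation p = 0.25 for each of the latter, the smallest that 3 pairs allow). The mean log2 pileup difference over Bcl2l11 and Trp73 was -0.62, -0.35 relative to the median gene, and -0.77 to -0.53 in the fits that left out any library but CTX replicate 3. Without CTX replicate 3, Bbc3 also had a peak in every library and the mean over the 3 genes was -0.44. It was -0.31 for Trp73 alone where Bcl2l11 no longer had a peak in every library, with a window of 1000 bp or a q-value of at most 0.01. Overlap and summit settings gave it no separate value, and no gene was left for it at a q-value of at most 1e-05. A peak of few reads, as at Perp and Plk3, rests on depth near the limit of calling.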
